A study of Mus musculus with 6 samples.

Results

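The genes described here are 39 lysosomal genes, chosen as a list of symbols and found by exact match in the deposited count table, where all 39 of the list were present among 18543 genes. They comprise 8 cathepsins, 6 glycosidases, 6 other proteins of the lysosomal lumen, 8 proteins of the lysosomal membrane and 11 subunits or accessory proteins of the vacuolar ATPase (V-ATPase). The list is one of gene names and was made with earlier results of these data known. All 39 passed the filter on low counts.

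The lysosome is the acidic compartment in which cells break down proteins, glycans, lipids and nucleic acids, including the cargo that autophagy delivers to it. Its soluble hydrolases are made in the endoplasmic reticulum and are carried to it mostly by a mannose 6-phosphate tag, its limiting membrane holds heavily glycosylated structural proteins and transporters, and the V-ATPase pumps protons across that membrane to keep the lumen acidic. Autophagosomes, whose formation needs the conjugation protein Atg5, end by fusing with lysosomes. ILC2s (innate lymphoid cells of group 2) reside in tissues such as the lung and answer the alarmin IL-33 by secreting type 2 cytokines such as IL-5 and IL-13.

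The RNA was that of lung ILC2s, obtained by sorting, from wild-type or Atg5-/- animals of the C57BL/6 strain at an age of 8 weeks, and libraries were made from 10 ng of RNA. Both genotypes had received rm IL-33 (0.5 µg) by the nose over 3 days in a row and were sampled on day 4, so no group is unstimulated. There were 3 libraries per genotype, called WT 1 to WT 3 and KO 1 to KO 3 after their labels. The deleted exons, the tissue in which Atg5 was deleted and the number of mice per library are stated neither in the labels nor in the files used here, so the p-values measure the spread between libraries, which may be in part technical.

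The library labelled WT 3 went against its label. The targeted gene Atg5 stood at 66.3, 71.8 and 21.8 CPM (counts scaled by library size and composition to a common total) under the label WT, numbers 1 to 3, and at 23.0, 25.6 and 52.2 CPM under the label KO. Its level was thus low in WT 3, KO 1 and KO 2, and KO 3 lay between those and the other WT libraries. Over all genes tested, WT 3 correlated with KO 1 and KO 2 at Pearson's r of 0.991 and 0.990, and with WT 1 and WT 2 at 0.946 and 0.948, while KO 3 correlated with WT 3, KO 1 and KO 2 at 0.979 to 0.980. These are correlations across genes, which are not independent replicates. Every direction below is therefore a difference between labels. Results are given without WT 3, which leaves 2 libraries against 3, and for some genes also with all 6 libraries. Library totals ran from 28827545 to 33662979 estimated counts, so that 3 counts, taken as the floor, corresponded to 0.0892 to 0.104 CPM, and no member came below 2.71 CPM in any library.

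With all 6 libraries, none of the 39 genes passed the edgeR quasi-likelihood test at an adjusted p under 0.05, and neither did any of the 14052 genes tested (background 0.0% in each direction). The smallest adjusted p of any gene in that fit was 0.342, which also holds for genes given below only without WT 3. Unadjusted p-values were under 0.05 for 8 of the 39 and for 2026 of all genes. DESeq2 on the same counts called 1 member, the progranulin gene Grn, lower in the libraries labelled KO (log2 difference -1.92, adjusted p = 0.0389), against a background of 2.19% of genes called lower. Without WT 3, 17 of the 39 genes fell and 1 rose, where 16.1% of all genes fell and 17.7% rose, and 21 did not pass. The words rose and fell refer from here on to this edgeR fit without WT 3, with p adjusted over all 14743 genes it tested. Log2 differences (KO minus WT) given with no other note come from it too. WT 3 was left out after these same data had shown it to lie with KO 1 and KO 2. The adjusted p-values of this fit therefore hold only given that choice. Leaving out any other single library gave 0 calls over all genes. The fit without both libraries numbered 3 leaves WT 3 out too. The median log2 difference, KO minus WT, over the 39 genes was -0.24 with all 6 libraries and -0.39 without WT 3, and that over all genes tested was 0.02 in both.

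Of the genes that fell, 13 of 17 encode luminal proteins. Of the 20 hydrolases and other luminal proteins 13 fell and none rose, of the 8 membrane proteins 1 fell, and of the 11 V-ATPase genes 3 fell and 1 rose. Over all genes, 16.1% fell and 17.7% rose. In CPM, all 3 KO libraries lay below WT 1 and WT 2 for 26 of the 39 genes, against 30.2% of all genes, and above both for 5 (Ctsl, Ctss, Cd63, Atp6v1b2 and Atp6v1h), against 30.6%. With WT 3 included, the groups did not overlap for 2 genes, the cathepsin Ctsh and the beta-galactosidase Glb1, both lower in the KO libraries, against 9.22% of all genes lower and 9.26% higher. Without both libraries numbered 3, 26 genes fell and 4 rose, against backgrounds of 22.7% each. Those that fell there were 15 of the 20 luminal, 6 of the 8 membrane and 5 of the 11 V-ATPase genes. The contrast between luminal and membrane genes in calls thus depends on the fit. In these sorted bulk samples, fewer cells of a type and less RNA per cell cannot be told apart.

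**Figure D1:**
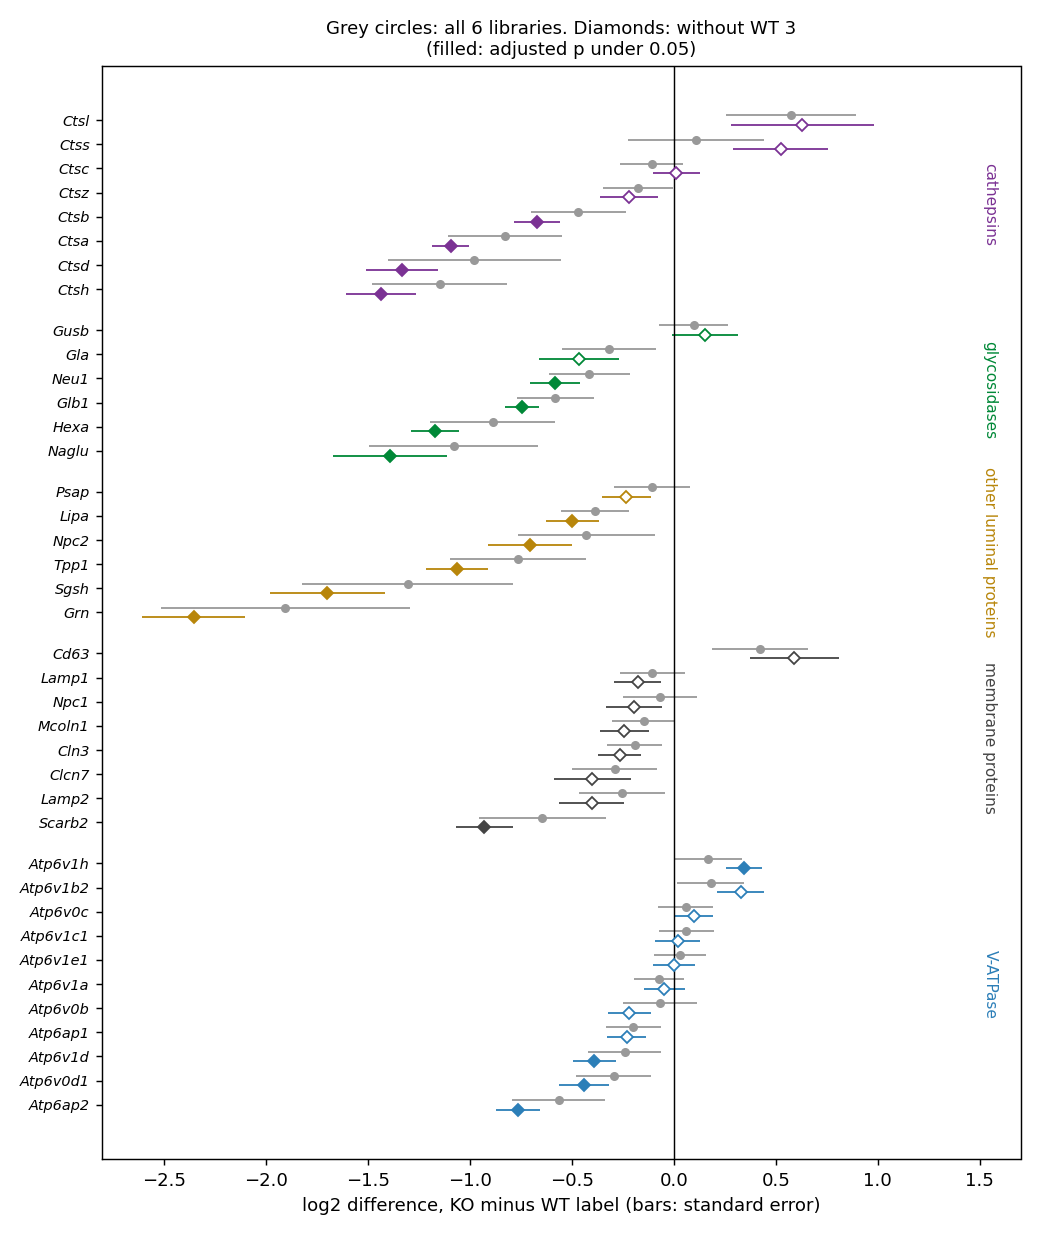
Log2 difference between the KO and WT labels (x axis) for each of the 39 genes (y axis, by subclass), with all 6 libraries (grey circles) and without the library labelled WT 3 (diamonds, filled where the adjusted p was under 0.05). Bars are standard errors. Filled diamonds lie to the left of 0 for 17 genes and to the right for Atp6v1h, and the grey circles lie nearer to 0 with wider bars for each of these 18.

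Among the cathepsins, the peptidases of the lysosome, Ctsa, Ctsb, Ctsd and Ctsh fell. Ctsd (chr7:142375911-142388038, minus strand, mm10) encodes cathepsin D, an aspartic protease, and stood at 1331, 1335 and 446 CPM under the WT label, numbers 1 to 3, and at 448, 461 and 672 CPM under the KO label. The first 2 WT libraries were high, WT 3 was level with KO 1 and KO 2, and KO 3 lay between. The log2 difference was -0.98 (SE 0.42, adjusted p = 0.346) with all 6 libraries and -1.33 (SE 0.17, adjusted p = 0.00138) without WT 3, a level 2.52-fold lower. Ctsd was also the gene of the set with the highest CPM.

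Ctsh, a cysteine protease that acts mainly as an aminopeptidase, had 53.1, 49.8 and 23.0 CPM under the WT label and 21.4, 20.3 and 15.1 CPM under the KO label. WT 3 was the lowest WT library and still lay above each KO library, so the groups did not overlap. The log2 difference was -1.15 (SE 0.33, adjusted p = 0.342) with all 6 libraries and -1.43 (SE 0.17, adjusted p = 0.000947) without WT 3. Ctsa, the carboxypeptidase that also protects beta-galactosidase and neuraminidase in a complex with them, was at 219, 208 and 103 CPM against 104, 94.0 and 100.2 CPM, a log2 difference of -1.09 (SE 0.089, adjusted p = 0.000227) without WT 3. Its WT 3 value lay within the KO range. The cysteine protease gene Ctsb was at 413, 415 and 247 CPM against 242, 239.8 and 295 CPM, a log2 difference of -0.67 (SE 0.11, adjusted p = 0.00376) without WT 3; KO 3 was the highest of the KO libraries.

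The other 4 cathepsins did not pass. Ctsz, a carboxypeptidase, had 403, 423 and 371 CPM under the WT label and 367, 405 and 289 CPM under the KO label, and the groups overlapped (log2 difference -0.22, SE 0.14, adjusted p = 0.289). Ctsc, the dipeptidyl peptidase that activates granule serine proteases, had 92.7, 100.2 and 120.2 CPM and 108, 96.3 and 86.7 CPM, with a difference near 0 (log2 difference 0.014, SE 0.12, adjusted p = 0.942). Ctsl had 15.0, 13.6 and 15.8 CPM under the WT label and 15.0, 17.5 and 33.7 CPM under the KO label. The KO 3 value of this cysteine protease gene stood apart from the other 5 libraries, and the difference did not pass (log2 difference 0.63, SE 0.35, adjusted p = 0.213). Ctss, a cysteine protease known for antigen processing, had 14.5, 14.8 and 29.1 CPM and 26.8, 19.8 and 16.4 CPM. It was highest in WT 3 and KO 1, its adjusted p was 0.129 without WT 3, and its difference was 0.68 (adjusted p = 0.0144) without both libraries numbered 3.

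**Figure D2:**
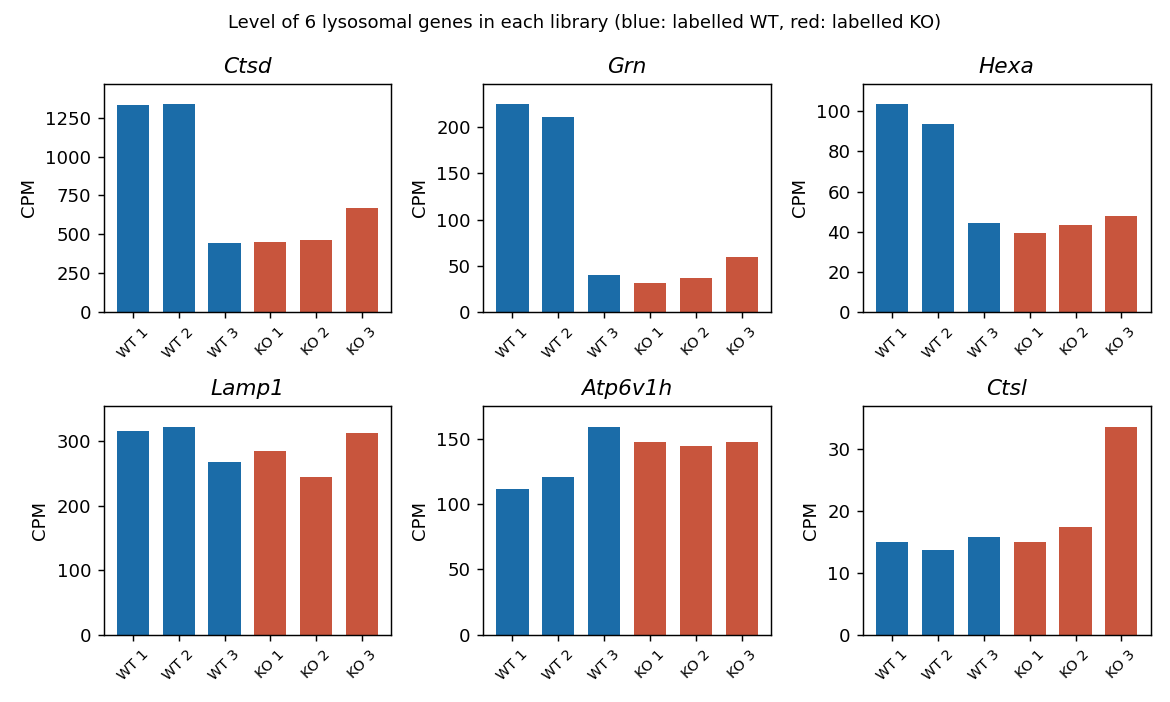
Level in CPM (y axes, each starting at 0) of 6 genes in each library (x axes), in blue for the WT label and in red for the KO label. For Ctsd, Grn and Hexa the bars of WT 3 and of the KO libraries are all lower than those of WT 1 and WT 2, Lamp1 is of like height throughout, Atp6v1h is lowest in WT 1 and WT 2, and Ctsl is highest in KO 3.

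Of the 6 glycosidases, which cleave sugars from glycoproteins, glycolipids and glycosaminoglycans, Glb1, Hexa, Neu1 and Naglu fell. Hexa (chr9:59539540-59565109, plus strand) encodes the alpha subunit of beta-hexosaminidase, which degrades gangliosides, and had 103, 93.3 and 44.4 CPM under the WT label and 39.4, 43.4 and 47.6 CPM under the KO label. WT 1 and WT 2 lay at about 2 times the other 4 libraries. Its log2 difference was -0.89 (SE 0.31, adjusted p = 0.342) with all 6 libraries and -1.17 (SE 0.12, adjusted p = 0.000471) without WT 3. Naglu, an N-acetylglucosaminidase of heparan sulfate breakdown, had 31.1, 37.5 and 13.9 CPM and 16.3, 14.4 and 8.33 CPM, a log2 difference of -1.39 (SE 0.28, adjusted p = 0.0084) without WT 3; KO 3 was the lowest library. Glb1 had 349.7, 332 and 229 CPM and 212, 199.8 and 198 CPM, and its groups stayed apart with WT 3 included. Its log2 difference was -0.58 (SE 0.19, adjusted p = 0.342) with all 6 libraries and -0.74 (SE 0.083, adjusted p = 0.000723) without WT 3. The neuraminidase gene Neu1 had 73.8, 79.1 and 50.3 CPM and 44.8, 54.4 and 53.4 CPM, a log2 difference of -0.58 (SE 0.12, adjusted p = 0.0101) without WT 3.

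Gla, the alpha-galactosidase, and Gusb, the beta-glucuronidase, did not pass. Gla was at 18.6, 24.2 and 14.8 CPM under the WT label and 14.4, 14.2 and 17.7 CPM under the KO label (log2 difference -0.46, SE 0.20, adjusted p = 0.111). It passed as lower without both libraries numbered 3 (log2 difference -0.57, adjusted p = 0.0287). Gusb was at 101, 95.6 and 108 CPM and 119, 122 and 85.7 CPM (log2 difference 0.15, SE 0.16, adjusted p = 0.513), with KO 1 and KO 2 the highest libraries and KO 3 the lowest. Without both libraries numbered 3, Gusb had a log2 difference of 0.30 (adjusted p = 0.0118), in the direction opposite to the other glycosidases.

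Of the 6 other luminal proteins 5 fell, among them the gene with the largest difference of the set. Grn (chr11:102430315-102437048, plus strand) encodes progranulin, which is cleaved into granulins in the lysosome, and had 224, 210.5 and 40.3 CPM under the WT label and 31.1, 36.7 and 59.3 CPM under the KO label. WT 3 lay inside the KO range, far from the other WT libraries. The log2 difference was -1.90 (SE 0.61, adjusted p = 0.342) with all 6 libraries and -2.35 (SE 0.25, adjusted p = 0.000598) without WT 3, a level 5.11-fold lower. Sgsh, the sulfatase that acts on N-sulfated glucosamine of heparan sulfate, had the next largest difference and the lowest level per length, at 12.5, 8.61 and 2.88 CPM against 3.26, 2.71 and 3.73 CPM (log2 difference -1.70, SE 0.28, adjusted p = 0.0036). WT 1 and WT 2 differed from each other here more than in most members.

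Tpp1, a tripeptidyl peptidase, had 238, 231 and 102 CPM under the WT label and 105, 94.4 and 136 CPM under the KO label, with -0.76 (SE 0.33, adjusted p = 0.346) for all 6 libraries and -1.06 (SE 0.15, adjusted p = 0.00197) without WT 3. Npc2, the soluble protein that hands cholesterol to the membrane protein Npc1, had 164, 166 and 76.5 CPM and 80.8, 88.3 and 133 CPM (log2 difference -0.71, SE 0.20, adjusted p = 0.0351). For both, KO 3 lay above KO 1 and KO 2. Lipa, the acid lipase that hydrolyses cholesteryl esters and triglycerides, fell by less, with 54.1, 55.0 and 41.8 CPM under the WT label and 42.9, 38.5 and 34.1 CPM under the KO label (log2 difference -0.50, SE 0.13, adjusted p = 0.0244). Its WT 3 value lay within the KO range. Psap, the precursor of the saposins that present lipids to hydrolases, did not pass at 398, 402 and 295 CPM and 314, 310.3 and 393 CPM (log2 difference -0.23, SE 0.12, adjusted p = 0.187); its KO 3 value came within 10 CPM of WT 1 and WT 2, and its difference without both libraries numbered 3 was -0.35 (adjusted p = 0.0016).

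Only Scarb2 fell among the 8 membrane proteins. Scarb2 (chr5:92441314-92506833, minus strand), the receptor that carries beta-glucocerebrosidase to the lysosome, had 104, 115 and 49.6 CPM under the WT label and 53.5, 51.4 and 67.5 CPM under the KO label. Its log2 difference was -0.64 (SE 0.31, adjusted p = 0.357) with all 6 libraries and -0.93 (SE 0.14, adjusted p = 0.00238) without WT 3. The 2 main structural glycoproteins of the membrane were closer to level. Lamp1 had 315, 323 and 269 CPM and 286, 245 and 312 CPM (log2 difference -0.18, SE 0.11, adjusted p = 0.285), with KO 3 just under WT 1. Lamp2 had 139, 148 and 100.4 CPM and 99.8, 92.3 and 133 CPM (log2 difference -0.40, SE 0.16, adjusted p = 0.0968), and was lowest in WT 3, KO 1 and KO 2. Without both libraries numbered 3 their differences passed, at -0.26 (adjusted p = 0.0306) and -0.57 (adjusted p = 0.000348).

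Among the channels, transporters and other membrane proteins, the calcium channel gene Mcoln1 (-0.24, SE 0.12), the cholesterol exporter gene Npc1 (-0.19, SE 0.14), the chloride-proton exchanger gene Clcn7 (-0.40, SE 0.19) and Cln3 (-0.26, SE 0.10), the gene of a multi-pass membrane protein, had negative log2 differences without WT 3 that did not pass, with adjusted p-values of 0.175, 0.324, 0.153 and 0.0951. Their levels ran from 22.5 CPM (Npc1 in WT 3) to 77.6 CPM (Cln3 in WT 1). Without both libraries numbered 3, Mcoln1, Clcn7 and Cln3 passed as lower (adjusted p = 0.0367, 0.00275 and 0.0406) and Npc1 did not pass (adjusted p = 0.16). Cd63, a tetraspanin of late endosomes and lysosomes, was low in every library, at 7.18, 6.32 and 9.15 CPM under the WT label and 9.14, 10.2 and 11.0 CPM under the KO label. It was the single membrane protein gene whose difference was positive (log2 difference 0.59, SE 0.22, adjusted p = 0.077), and it did not pass.

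The V-ATPase consists of a membrane sector, V0, that conducts protons, and a peripheral sector, V1, that hydrolyses ATP. Of the 3 V0 genes, Atp6v0d1, whose product links the sectors, fell, with 96.9, 107 and 71.4 CPM under the WT label and 68.9, 70.5 and 85.0 CPM under the KO label (log2 difference -0.44, SE 0.12, adjusted p = 0.0307). The gene of the proteolipid ring subunit, Atp6v0c, had 270.4, 279 and 293 CPM and 273, 288 and 317 CPM (log2 difference 0.10, SE 0.095, adjusted p = 0.479). Its 6 libraries lay close together with overlapping groups. Atp6v0b, which encodes another ring subunit, had 165, 161 and 113 CPM and 127, 139 and 153 CPM (log2 difference -0.22, SE 0.10, adjusted p = 0.153). It passed as lower without both libraries numbered 3 (log2 difference -0.28, adjusted p = 0.0146).

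Of the 6 V1 genes, 1 fell and 1 rose. Atp6v1d, the gene of a central stalk subunit, fell, with 125, 115 and 83.2 CPM under the WT label and 84.3, 89.9 and 99.0 CPM under the KO label (log2 difference -0.39, SE 0.10, adjusted p = 0.0264). Atp6v1h (chr1:5070018-5162529, plus strand), the gene of a regulatory subunit, rose, with 112, 121 and 159 CPM and 148, 145 and 148 CPM. Its log2 difference was 0.17 (SE 0.16, adjusted p = 0.574) with all 6 libraries and 0.34 (SE 0.087, adjusted p = 0.0217) without WT 3. WT 3 was the highest library for it. The genes of the catalytic and nucleotide-binding subunits did not pass: Atp6v1a was at 115, 123 and 123 CPM and 123, 107 and 114 CPM (log2 difference -0.045, SE 0.10, adjusted p = 0.771), and Atp6v1b2 was at 105, 109 and 139 CPM and 138, 117 and 146 CPM (log2 difference 0.33, SE 0.12, adjusted p = 0.0683). Without both libraries numbered 3, Atp6v1b2 passed as higher (log2 difference 0.26, adjusted p = 0.0478). Atp6v1c1 and Atp6v1e1, genes of subunits that hold the peripheral stalks together and form them, had log2 differences of 0.019 (SE 0.11) and 0.0026 (SE 0.10), with levels of 112 to 138 CPM and 116 to 135 CPM over the 6 libraries.

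Both accessory proteins help to assemble the pump. Atp6ap2, also known as the prorenin receptor, fell, with 287, 287 and 172 CPM under the WT label and 171, 148 and 185 CPM under the KO label. Its log2 difference was -0.56 (SE 0.23, adjusted p = 0.342) with all 6 libraries and -0.76 (SE 0.11, adjusted p = 0.00191) without WT 3. This was the largest difference among the 11 genes. Atp6ap1 had 244, 235 and 219.7 CPM and 192, 195 and 223 CPM and did not pass (log2 difference -0.23, SE 0.10, adjusted p = 0.113). It passed as lower without both libraries numbered 3 (log2 difference -0.30, adjusted p = 0.00579).

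Set side by side, the median log2 difference was -0.32 over the cathepsins, -0.50 over the glycosidases, -0.60 over the other luminal proteins, -0.17 over the membrane proteins and -0.068 over the V-ATPase genes with all 6 libraries. Without WT 3 these medians were -0.44, -0.66, -0.88, -0.25 and -0.045. The median over all genes tested was 0.02 in both fits. Without both libraries numbered 3, the genes lower past the threshold numbered 4 cathepsins, 5 glycosidases, 6 other luminal proteins, 6 membrane proteins and 5 V-ATPase genes. Those higher were 1 cathepsin, 1 glycosidase and 2 V-ATPase genes. Over all genes, 22.7% were lower and 22.7% higher in that fit. The differences between subclasses were not tested. Within these subclasses, all 8 genes more than 2-fold lower without WT 3 were luminal (Ctsa, Ctsd, Ctsh, Hexa, Naglu, Sgsh, Tpp1 and Grn). This depended on the fit and on the list. Without both libraries numbered 3, the membrane protein gene Scarb2 was past 2-fold lower too (log2 difference -1.06). Of 28 other lysosomal membrane protein genes, 9 fell and 1 rose without WT 3. Laptm5 (-1.90), Tpcn1 (-1.37) and Sidt2 (-1.16) among them were more than 2-fold lower. The share of all genes past 2-fold was not computed.

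Summed over the 39 genes, the level was 6852 and 6897 CPM in WT 1 and WT 2, 4576 CPM in WT 3 and 4534, 4480 and 5142 CPM in KO 1, KO 2 and KO 3. WT 3 differed from the mean of KO 1 and KO 2 by less than 0.25 on the log2 scale in 37 of the 39 genes, with a median difference of 0.035. KO 3 lay above both KO 1 and KO 2 in 26 genes and below both in 8. The widest such gaps, as log2 differences from their mean, were 1.06 for Ctsl, -0.88 for Naglu, 0.81 for Grn, 0.66 for Npc2 and 0.57 for Ctsd. The targeted gene Atg5 was also higher in KO 3 than in KO 1 and KO 2; the part of this in the members' values was not tested.

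**Figure D3:**
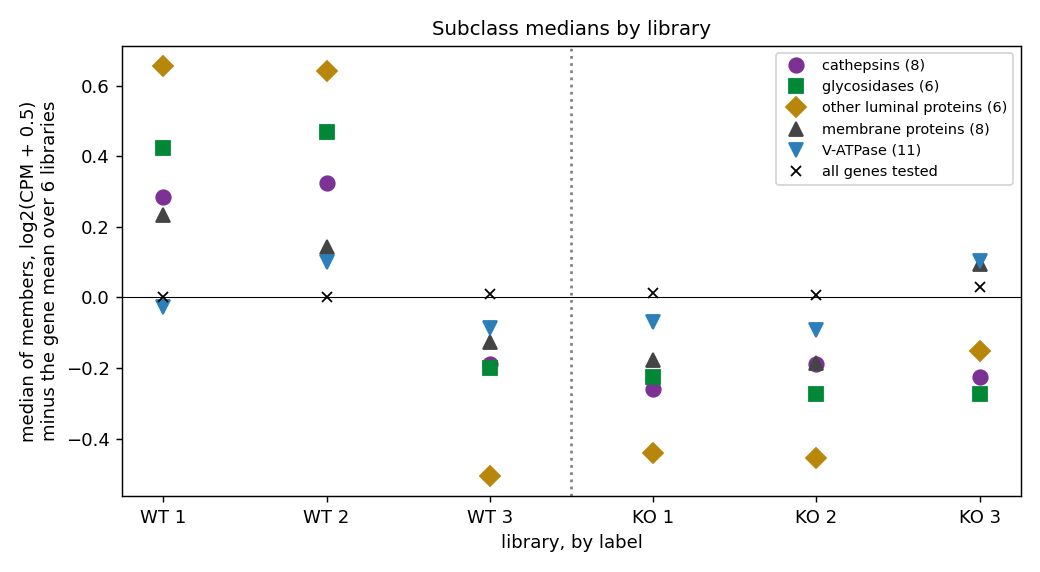
Median over the genes of each subclass (y axis: log2 of CPM plus 0.5, minus each gene's mean over the 6 libraries) in each library (x axis), with the median over all genes tested as crosses. The other luminal proteins span the widest range, high in WT 1 and WT 2 and low in WT 3, KO 1 and KO 2, while the V-ATPase genes span the narrowest.

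Levels were compared between genes per length, as mean CPM over the 6 libraries per kb of exon. Ctsd had the highest mean at 368 CPM per kb, followed by Ctsz at 261, Atp6v0c at 228, Atp6v0b at 143, Lamp1 at 131, Psap at 128 and Glb1 at 106 CPM per kb. The lowest were Gla at 5.46, Npc1 at 5.25, Ctsl at 2.99 and Sgsh at 1.29 CPM per kb. Ctsd was the highest in WT 1, WT 2 and KO 3, and lay below both Ctsz and Atp6v0c in WT 3, KO 1 and KO 2. Over the 6 libraries, the values of Ctsd, Ctsz and Atp6v0c overlapped, as did those of Atp6v0b, Lamp1, Psap and Glb1, and at the lower end each gene overlapped its neighbours in this order. Atp6v0c lay above Atp6v0b in every library, with no overlap. By their means the V-ATPase genes held ranks 3 to 23, so they ran from among the most abundant to the middle of the set.

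**Figure D4:**
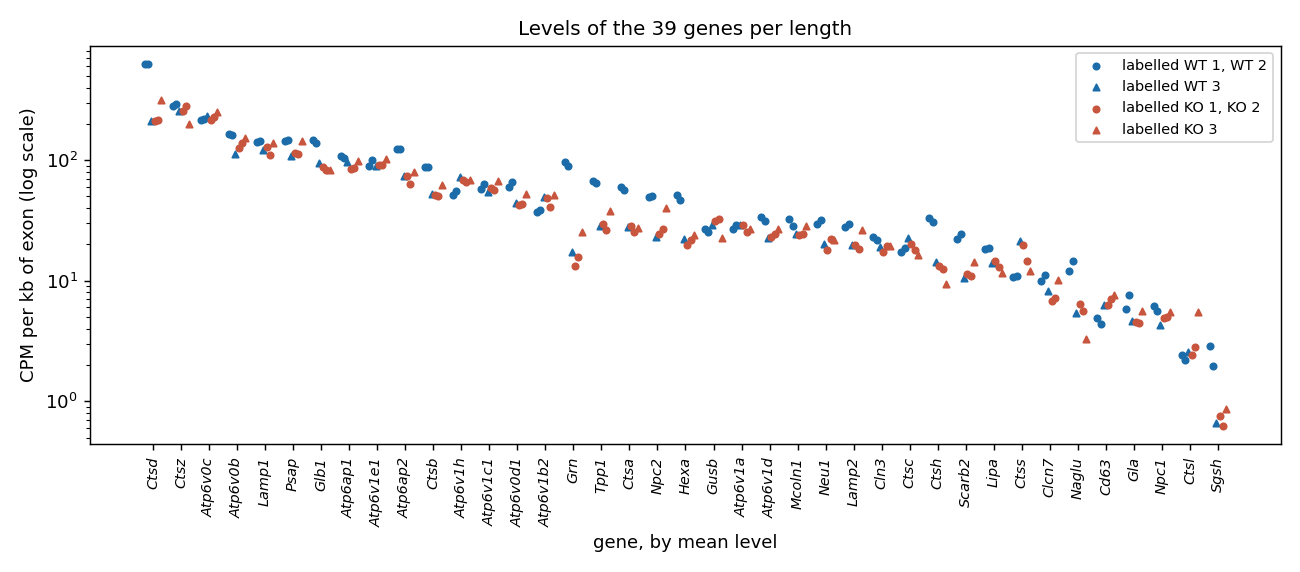
Level per kb of exon on a log scale (y axis) of each of the 39 genes (x axis, by mean level), with 1 point per library, in blue for the WT label and red for the KO label and as triangles for the libraries numbered 3. The genes span from 368 (Ctsd) to 1.29 (Sgsh) in mean CPM per kb, and for Grn the WT 1 and WT 2 points stand clear of the other 4.

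Exons of 12 of the 39 genes share bases with another gene in the annotation (GENCODE vM21 basic), and no source used here says whether reads were counted by strand. The share of exonic bases was 31.5% for Ctsd (with the predicted gene Gm49369), 28.2% for Ctsl, 22.3% for Ctsa (Neurl2 and Pltp), 21.9% for Sgsh (Card14), 16.3% for Ctsb (Fdft1) and 13.2% for Cln3 (Apobr), so the levels of these 6 genes are less certain. It was under 10% for Ctsz, Glb1, Lamp1, Npc1, Atp6v0b and Atp6v1h. Grn, Ctsh, Hexa, Naglu, Tpp1, Scarb2 and Atp6ap2 are among the 27 genes with no shared exonic base. Among other lysosomal genes named below, the share was 59.7% for Arsb, 49.5% for Gnptg, 26.3% for Rnaset2b and 14.6% for Gga2. For Sidt2 and Atp6v0a2 it was 12.4%. The levels of these genes are less certain too.

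Many promoters of lysosomal genes are known to carry the CLEAR element, a palindrome around CACGTG that the factors Tfeb and Tfe3 bind. RefSeq promoter windows (GRCm38.p6, 250 bases before to 50 after the start) were matched by symbol for 33 of the 39 genes, and a gene with several windows was scored over all of them. TCACGTG, searched on both strands, occurred in 13 of the 33 (39.4%) and in 682 of 9648 genes tested (7.07%). CACGTG alone, which TCACGTG contains, occurred in 42.4% against 11.9%, and the full palindrome TCACGTGA in 24.2% against 2.28%. By subclass, TCACGTG occurred in 2 of 6 cathepsins, 3 of 6 glycosidases, 1 of 6 other luminal proteins, 4 of 7 membrane proteins and 3 of 8 V-ATPase genes. It was found in 6 of the 15 genes that fell (40.0%) and in 7 of the 18 others (38.9%). A match describes the letters only.

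All 8 sites of the 6 genes that fell and held the motif are given with their flanks, because they show the shared core beside differing surroundings. Letters run from 5′ to 3′ on the gene's strand, capitals mark the motif, and the position is that of the first base of CACGTG, counted from the RefSeq start as +1 and with no 0.
Ctsa, position -12: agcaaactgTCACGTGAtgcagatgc
Ctsa, position 6: tgcagatgcTCACGTGAccagagcta
Ctsd, position -245: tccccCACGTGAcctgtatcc
Ctsd, position -98: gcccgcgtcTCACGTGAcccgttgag
Glb1, position -48: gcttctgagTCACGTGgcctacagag
Naglu, position -73: accttcaggTCACGTGgcccgaggtc
Sgsh, position -29: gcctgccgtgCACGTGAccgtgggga
Atp6v0d1, position -3: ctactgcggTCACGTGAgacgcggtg
These stretches lie at chr2:164833751-164833776 (Ctsa, plus strand), chr2:164833768-164833793 (Ctsa, plus strand), chr7:142388057-142388077 (Ctsd, minus strand), chr7:142387910-142387935 (Ctsd, minus strand), chr9:114401020-114401045 (Glb1, plus strand), chr11:101070011-101070036 (Naglu, plus strand), chr11:119355524-119355549 (Sgsh, minus strand) and chr8:105566052-105566077 (Atp6v0d1, minus strand). The GENCODE annotation has an exon of the same gene within the 100 bases before this RefSeq start for each of these genes but Atp6v0d1.

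The 100 bases before the start are also shown for Lamp1 and Atp6v0b, which hold the motif and did not pass the test, and for Hexa, which fell and holds no match in its window. The windows lie at chr8:13159061-13159160 on the plus strand (Lamp1), chr4:117887330-117887429 on the minus strand (Atp6v0b) and chr9:59539440-59539539 on the plus strand (Hexa). They hold no exon of the GENCODE basic annotation. The last bases of the Atp6v0b window lie within the gene's annotated bounds, which end at chr4:117887333.
Lamp1: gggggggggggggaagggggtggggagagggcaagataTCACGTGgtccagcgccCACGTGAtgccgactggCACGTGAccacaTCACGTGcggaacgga
Atp6v0b: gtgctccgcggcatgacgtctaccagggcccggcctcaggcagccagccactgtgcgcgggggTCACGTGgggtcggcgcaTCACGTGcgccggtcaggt
Hexa: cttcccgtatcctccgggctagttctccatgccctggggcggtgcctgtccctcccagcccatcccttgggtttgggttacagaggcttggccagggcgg
Lamp1 held 4 matches, at -61, -45, -28 and -15, and Atp6v0b held 2, at -36 and -18. Grn, the gene with the largest difference, also had no match in its window.

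Of the Tfeb family itself, Tfeb fell, with 21.9, 27.3 and 8.75 CPM under the WT label and 7.27, 8.27 and 7.24 CPM under the KO label. Its log2 difference was -1.35 (SE 0.40, adjusted p = 0.342) with all 6 libraries and -1.69 (SE 0.19, adjusted p = 0.000711) without WT 3. Tfe3 had 54.2, 59.3 and 60.8 CPM and 63.9, 56.0 and 75.1 CPM and did not pass (log2 difference 0.20, SE 0.14, adjusted p = 0.33). Mitf, the other of the 3 measured family members, did not pass either.

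Other lysosomal genes were followed in 9 further lists. Without WT 3, 42 of the 110 tested fell and 7 rose, where 16.1% of all genes fell and 17.7% rose. With all 6 libraries edgeR called none of 109, and their smallest adjusted p was 0.342. Of these genes, 54 fell and 9 rose without both libraries numbered 3, against 22.7% of all genes each. Of 11 other proteases 5 fell and 2 rose. Among them, Cpq, a dipeptidase, had 16.0, 18.7 and 3.78 CPM under the WT label and 3.60, 2.74 and 3.00 CPM under the KO label. Its log2 difference was -2.04 (SE 0.57, adjusted p = 0.342) with all 6 libraries and -2.47 (SE 0.23, adjusted p = 0.000345) without WT 3. The cathepsin gene Ctso (log2 difference -0.92, SE 0.15, adjusted p = 0.0034) and the carboxypeptidase gene Prcp (log2 difference -1.10, SE 0.23, adjusted p = 0.00905) fell as well. Scpep1, a serine carboxypeptidase, rose, with 32.3, 34.4 and 83.9 CPM and 76.5, 75.4 and 188 CPM (log2 difference 1.77, SE 0.42, adjusted p = 0.0167); KO 3 was at over 2 times any other library. Of the 3 cystatins, which inhibit cysteine cathepsins, Cst3 (log2 difference -1.14, SE 0.11, adjusted p = 0.000344) and Cst7 (log2 difference -2.17, SE 0.24, adjusted p = 0.000717) fell, and Cstb did not pass (log2 difference 0.41, SE 0.13, adjusted p = 0.0526). Cstb passed as higher without both libraries numbered 3 (log2 difference 0.29, adjusted p = 0.0198).

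Of 20 other glycosidases and sulfatases 12 fell and 2 rose, where 16.1% of all genes fell and 17.7% rose. The alpha-mannosidase gene Man2b1 had 338, 319 and 124 CPM under the WT label and 110.2, 104 and 127 CPM under the KO label (log2 difference -1.53, SE 0.11, adjusted p = 0.000142). Fuca1, the fucosidase gene (log2 difference -1.02, SE 0.10, adjusted p = 0.000454), and the sulfatase genes Arsb (log2 difference -2.19, SE 0.25, adjusted p = 0.000838) and Galns (log2 difference -1.29, SE 0.17, adjusted p = 0.00125) fell too. Arsb shares 59.7% of its exonic bases with other genes in the annotation, so its level is less certain. Of 13 hydrolases of lipids, phosphate esters and nucleic acids 11 fell and none rose. Gm2a, the activator protein that Hexa and its partner subunit need to act on ganglioside, had 1292, 1310 and 337 CPM and 315, 305 and 286 CPM (log2 difference -2.10, SE 0.082, adjusted p = 2.32e-05), and Acp5, an acid phosphatase, had 57.8, 62.8 and 11.0 CPM and 10.5, 10.5 and 5.39 CPM (log2 difference -2.77, SE 0.28, adjusted p = 0.000461). Rnaset2b, a ribonuclease gene with a near-identical copy (Rnaset2a) that makes its counts uncertain, fell by less (log2 difference -0.59, SE 0.092, adjusted p = 0.00278).

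Of 28 other membrane proteins 9 fell and 1 rose, where 16.1% of all genes fell and 17.7% rose. Laptm5, a lysosomal protein of blood cells, was the most abundant in CPM, with 2358, 2312 and 623 CPM under the WT label and 606, 612 and 649.9 CPM under the KO label (log2 difference -1.90, SE 0.077, adjusted p = 2.56e-05). The other membrane protein genes named by the rule, Sidt2 (log2 difference -1.16, SE 0.12, adjusted p = 0.000449), the transporter gene Abca2 (log2 difference -0.78, SE 0.11, adjusted p = 0.00176) and the channel gene Tpcn1 (log2 difference -1.37, SE 0.25, adjusted p = 0.00569), fell. Of 9 other V-ATPase genes 1 fell, Atp6v0a2, a V0 subunit gene (log2 difference -0.63, SE 0.089, adjusted p = 0.00183). Atp6v0e (log2 difference 0.022, SE 0.10, adjusted p = 0.886) and Atp6v1g1 (log2 difference 0.37, SE 0.17, adjusted p = 0.133) did not pass, and Atp6v0d2 was at 0.852 CPM or less in every library.

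**Figure D5:**
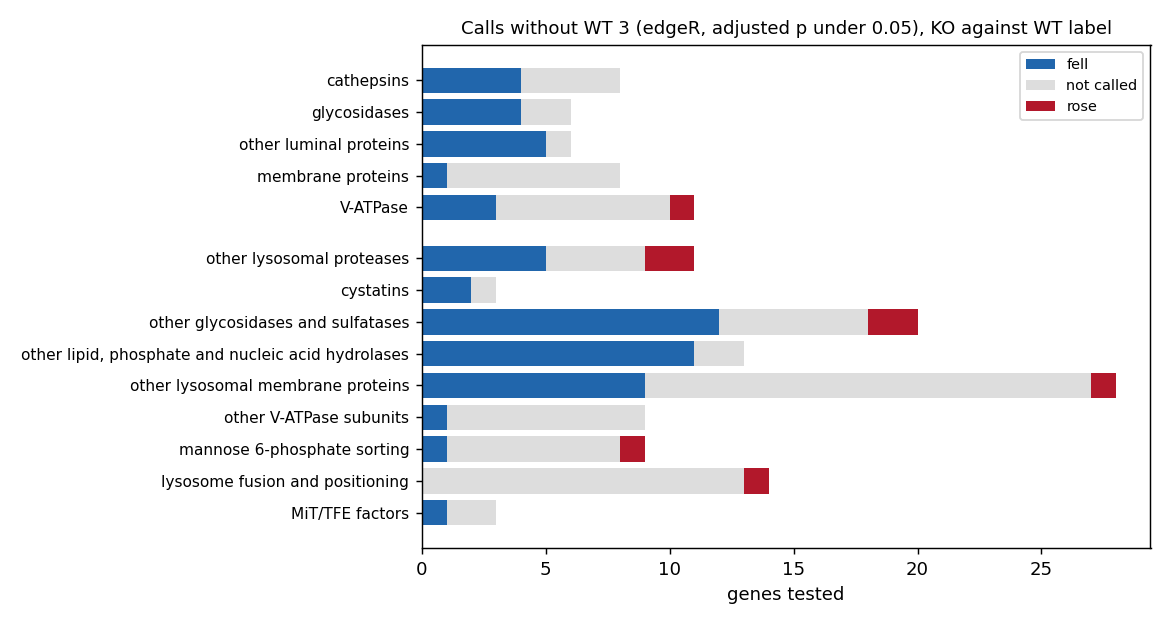
Number of genes tested (x axis) that fell, rose or did not pass without the library labelled WT 3, for the 5 subclasses of the 39 genes (upper bars) and for 9 lists of other lysosomal genes (lower bars). The blue parts, genes that fell, take 4 of 8, 4 of 6 and 5 of 6 in the first 3 bars and 3 of 11 in the V-ATPase bar, and 11 of 13 among the other lipid, phosphate and nucleic acid hydrolases.

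The ILC2 label was checked against 12 markers, all measured. They summed to 15454 to 18351 CPM under the WT label and 11399 to 15428 CPM under the KO label, with the lineage factor gene Gata3 at 1559, 1533 and 964 CPM and 900.1, 925 and 927 CPM in the same order. The IL-33 receptor gene Il1rl1 was at 973, 924 and 471 CPM and 456, 432 and 527 CPM, and the cytokine gene Il5, the largest part of the sum in each library, at 8242, 9003 and 9148 CPM and 9194, 8702 and 5352 CPM. Thy1 was the lowest of the 12, at 8.88, 9.85 and 1.76 CPM and 2.87, 2.29 and 0.670 CPM. Macrophages are rich in lysosomal hydrolases, and 7 of their 12 listed markers were measured; these summed to 4.45 to 27.0 CPM under the WT label and 1.15 to 11.7 CPM under the KO label. Their most abundant marker, Chil3, was at 3.11, 0.229 and 24.6 CPM and 8.87, 5.68 and 0.479 CPM, and the other 6 were each under 2 CPM in every library. Of the 5 macrophage markers tested without WT 3, none passed and 4, among them Lyz2 (1.93, 1.54 and 0.729 CPM and 1.04, 0.922 and 0.0638 CPM), had negative differences. Of the ILC2 markers, 7 of 12 fell and 1 rose without WT 3, where 16.1% of all genes fell and 17.7% rose. The marker that rose was Il13, at 99.0, 117 and 355 CPM and 367, 367 and 286 CPM (log2 difference 1.66, SE 0.15, adjusted p = 0.000305). Il7r also had a positive difference and did not pass (log2 difference 0.11, SE 0.090, adjusted p = 0.382), and the other 10 were negative. Gata3 and Il1rl1 were highest in WT 1 and WT 2, and the part of the ILC2 markers in the lysosomal results was not tested. The markers of dendritic cells (3 of 6) summed to 47.8 to 49.3 and 43.9 to 54.7 CPM. Most of this was Xcr1 alone, at 47.4, 47.0 and 44.4 CPM and 52.1, 47.5 and 42.0 CPM. The other measured markers of that list were each at 3.98 CPM or less in every library, and 3 listed ones had no row. Those of mast cells and basophils (5 of 5, led by Cpa3) summed to 7.26 to 13.5 and 0.447 to 5.54 CPM.

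Single markers of other cells differed between WT 1 and WT 2 and the other 4 libraries. Epcam, a marker of epithelial cells, was at 57.4, 52.3 and 14.3 CPM under the WT label and 12.6, 13.7 and 8.90 CPM under the KO label. Pecam1, a marker of endothelial cells, was at 10.4, 8.54 and 93.1 CPM and 107, 92.0 and 131 CPM. These were the most abundant of 2 of 4 and 1 of 3 markers measured. The other epithelial marker measured, Scgb1a1, was at 15.0 CPM in KO 2 and at 0.232 CPM or less in every other library. The remaining listed markers of both cell types had no row. T cell markers (5 of 6, led by Cd3g) summed to 23.4 to 43.4 and 21.8 to 25.8 CPM, of which Cd3g alone made 35.3, 37.2 and 16.3 CPM and 18.3, 18.8 and 11.4 CPM. Cd3g fell, and of the other 4 T cell markers measured, Cd3d, Cd3e and Cd4 had positive differences and none passed. B cell markers (3 of 4, led by Cd79b) summed to 13.5 to 19.5 and 6.67 to 14.3 CPM and erythroid markers (2 of 3, led by Hba-a1) to 4.18 to 5.47 and 3.35 to 4.61 CPM. Markers of natural killer cells, neutrophils and fibroblasts summed to at most 1.60, 0.312 and 0.542 CPM in any library. The most abundant of these were Prf1, S100a9 and Col1a1 in that order. No listed eosinophil marker had a row in the table used. The part of these markers in the lysosomal results was not tested.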

How the data were processed

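Sequencing libraries from sorted lung ILC2s (3 labelled WT, 3 labelled KO) were processed with tools that include STAR, Partek and CASAVA 1.8.2, with the genome build mm10, per the submitters' processing notes. The deposited table's name says that Partek quantified reads to an annotation model; which annotation release and strand setting it used was not stated in what was read here. Per gene, the authors deposited estimated counts, of which 47.1% to 48.5% per library were whole numbers, and a table of normalized signal, which equals the count plus 1 divided by a factor per library. The estimated counts were rounded. Genes passing edgeR's filterByExpr (14052) were scaled by TMM and tested, KO against WT, with edgeR 4.0.16 (robust quasi-likelihood, R 4.3.3), with Benjamini-Hochberg adjustment over all genes tested and a threshold of 0.05. CPM uses the TMM-scaled library sizes. The fit was first tested on simulated data. Alternatives were DESeq2 1.42.0, limma 3.58.1, other scalings and filters, a replicate block and left-out libraries. The floor of 3 counts covers counting error only.

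The members and lists were chosen with earlier results of these data known. Named genes are all 39 members, Atg5, and of each other lysosomal list the 2 lowest p-values with all 6 libraries plus the 2 most abundant; of each list of other cells the most abundant, and for ILC2s Gata3, Il1rl1 and Il5. Thy1, Il13, Il7r, Lyz2, Cd3d, Cd3e, Cd4, Scgb1a1, Mitf, Borcs7, Borcs8 and Gga3 are named outside this rule, after their values were seen. Same-numbered libraries did not deviate together (r = -0.037, 0.020 and -0.0078), so numbers were not treated as pairs. Exon lengths are unions over GENCODE vM21 basic; promoters come from RefSeq, GRCm38.p6, and 6 members without an entry are Ctsb, Ctsh, Npc1, Atp6v1b2, Atp6v1c1 and Atp6v1h.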

Additional observations from a re-analysis of the deposited data

How the results depend on the processing

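The calls rest on which libraries are compared. Over all genes, the number past the threshold was 0 with all 6 libraries, 323 with DESeq2, 0 to 4991 as each library was left out in turn, with 4991 without WT 3 and 0 without any other, and 6505 without both libraries numbered 3. Among the 39 genes, none was higher with all 6 libraries, 0 to 1 were as each library was left out and 4 without both libraries numbered 3; those lower numbered 1 with DESeq2, 0 to 17 as each was left out and 26 without both. The median log2 difference of the other luminal proteins was -1.09 without both. The cause of these changes was not tested. Leaving out each library in turn moved the sign of 7 genes with small differences, with ranges of -0.21 to 0.014 for Ctsc, -0.10 to 0.53 for Ctss, -0.021 to 0.25 for Gusb, -0.19 to 0.028 for Npc1, -0.22 to 0.0052 for Atp6v0b, -0.0062 to 0.12 for Atp6v1c1 and -0.023 to 0.092 for Atp6v1e1. Without both libraries numbered 3, the sign also changed for Ctsc (0.089), Atp6v1c1 (-0.053) and Atp6v1e1 (-0.056), and Atp6v1e1 was -0.0041 with no filter on low counts and -0.0047 with a filter of 2 CPM in 3 libraries. With DESeq2's size factors, library totals alone, limma-voom and limma on the authors' signal, all 39 genes kept their sign and did not pass. With the replicate number as a block, 0 genes passed, and the median over the 39 genes was -0.22; same-numbered libraries share only a number.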

Other observations

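Genes of hydrolase delivery and lysosome movement were followed in a pair of lists. Without the library labelled WT 3, 1 of 9 genes of mannose 6-phosphate sorting fell and 1 rose, where 16.1% of all genes fell and 17.7% rose. With both libraries numbered 3 left out, 2 fell and 3 rose, against 22.7% each. Gnptg, the gene of a subunit of the enzyme that adds the tag, fell, with 81.0, 78.5 and 49.5 CPM under the WT label, numbers 1 to 3, and 54.9, 55.7 and 50.7 CPM under the KO label (log2 difference -0.56, SE 0.10, adjusted p = 0.005). Gnptg shares 49.5% of its exonic bases with Unkl, so its level is less certain. Gga2, the gene of an adaptor that sorts tagged cargo, rose, with 16.0, 12.4 and 28.8 CPM and 28.6, 25.2 and 28.0 CPM (log2 difference 0.94, SE 0.17, adjusted p = 0.00585). The receptor gene M6pr had 395, 391 and 492 CPM and 493, 507 and 435 CPM and did not pass (log2 difference 0.29, SE 0.10, adjusted p = 0.0533), though it did without both libraries numbered 3 (log2 difference 0.36, SE 0.064, adjusted p = 0.00133), as did the adaptor gene Gga3 (log2 difference 0.35, SE 0.11, adjusted p = 0.0223). Neither fit called Nagpa, the gene of the enzyme that uncovers the tag (log2 difference 0.31, SE 0.12, adjusted p = 0.0969).

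Of 14 genes of lysosome fusion and positioning, none fell and 1 rose without WT 3, where 16.1% of all genes fell and 17.7% rose. That gene was Borcs7 (log2 difference 0.65, SE 0.20, adjusted p = 0.0449), which is named because it was the single call. With both libraries numbered 3 left out, none rose (Borcs7 adjusted p = 0.0501) and 2 fell, against 22.7% of all genes each. The 2 were Borcs8 (log2 difference -0.46, SE 0.15, adjusted p = 0.0344) and Vps18 (log2 difference -0.35, SE 0.12, adjusted p = 0.0408). Rab7, the small GTPase of late endosomes and lysosomes, had 281, 274 and 254 CPM under the WT label and 242, 251 and 260.2 CPM under the KO label (log2 difference -0.14, SE 0.082, adjusted p = 0.237). The tethering complex genes Vps16 (log2 difference 0.11, SE 0.11, adjusted p = 0.485), Vps18 (log2 difference -0.34, SE 0.12, adjusted p = 0.0703) and Vps33a (log2 difference 0.26, SE 0.11, adjusted p = 0.12) did not pass without WT 3. The differences between these lists and the hydrolases were not tested.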
